A study of Sus scrofa with 8 samples.

Results

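Death receptor signalling was described through 4 genes in the whole blood of miniature pigs: the inhibitors CFLAR and BCL2L1, the receptor FAS and the initiator caspase CASP8. A probe was taken when its gene name was one of these symbols, or when its description gave the symbol in parentheses or the full gene name. With 1 further probe that carried a synonym, this gave 6 of 43603 probes. The array names 1914 genes in all. No probe carried the symbol CFLAR. CFLAR probe 1 was named C-FLIP, which the RefSeq gene table lists as a synonym of CFLAR, and CFLAR probe 2 was described as the short form of cellular FLICE-like inhibitory protein, the full name of the same gene. CASP8 also had 2 probes, and FAS and BCL2L1 had 1 each. The genes were chosen on the SDW minus control difference in these same 8 arrays, so that difference is given for them as a description with no test. SE below is the standard error of the fitted difference.

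The animals were 8 female miniature pigs (Clawn) aged 8 to 9 months, labelled as conventional animals. Of these, 4 received shochu distilled water (SDW) mixed with dry feed and water in parts of 1 to 1 to 1 by weight, and 4 controls received the standard dry feed. Each animal gave 1 array with 60-base probes read in 1 colour (Cy3). By the series design, blood was taken after 12 weeks; the individual sample descriptions name weeks 14, 15, 16 and 17 for animals 1 to 4 on each diet. In the authors' table of values, 7 of 8 columns held the array of a different animal on the same diet than the label named, so an animal's number is certain only as that of its scanner file, and its diet is the same in both. Shochu is a Japanese distilled spirit.

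When a ligand binds FAS on the cell surface, the adaptor FADD brings caspase-8 to the receptor, where the caspase is activated and starts apoptosis. CFLAR resembles caspase-8 but lacks its protease activity, and it competes for the same complex; human cells make long and short forms of it. BCL2L1 (Bcl-xL) acts further down and keeps mitochondria from releasing the factors that activate the executioner caspases. In blood, this pathway limits the life of activated lymphocytes and of neutrophils, and Bcl-xL sustains platelets and maturing red cells. In the pig gene table, CFLAR and CASP8 are neighbours on the same chromosome with 1 gene, CASP10, between them, and no probe was named for CASP10.

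The probes are shown because 2 probes of CFLAR and 2 of CASP8 gave different values, so the letters say what was measured. CASP8 probe 2 and the BCL2L1 probe, which start at bases 579 and 92 of their transcripts, are given whole. The others, whose place relative to the coding part is not known or lies late in the transcript, are given by their first 30 of 60 bases, all 5′ to 3′ as in the array files.
CFLAR probe 1: taaaatgaccatctctgaggaatgccagat
CFLAR probe 2: ccttaagactgatggattcagggaatggca
BCL2L1 probe: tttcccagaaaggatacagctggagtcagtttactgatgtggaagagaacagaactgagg
FAS probe: ggtggaaggtggttcccccttatgtgtgga
CASP8 probe 1: gcccacttttaagaggactgatgttaatag
CASP8 probe 2: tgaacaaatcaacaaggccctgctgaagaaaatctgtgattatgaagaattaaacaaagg
The CFLAR probes shared no run longer than 6 bases and the CASP8 probes none longer than 4, so neither pair overlaps. CFLAR probe 1 starts at base 1528 of a thymus transcript, and CFLAR probe 2 at base 942 of another transcript, which the file describes as the short form. CASP8 probe 1 starts at base 2479 and the FAS probe at base 2483. GC content was 45.0% and 41.7% in the CFLAR probes, 35.0% in the FAS probe and in both CASP8 probes, and 45.0% in the BCL2L1 probe. No genome of the array's build was used, so chromosome positions are not given.

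Signal stood well above background on all 8 arrays for 5 of the 6 probes, and on 0 of 8 for the BCL2L1 probe. A level is the log2 of a spot's intensity minus the log2 of its array's 75th percentile. Levels are compared between animals for 1 probe and not between probes. A probe entered the fit when well above background on at least 4 arrays, which left 17357 probes. The arrays lay on 3 slides that each held both diets: slide 1 held SDW 2, SDW 3 and control 3, slide 2 held SDW 1, control 2 and control 4, and slide 3, scanned on another day, held SDW 4 and control 1. The slide 3 arrays stood apart on component 1 of a principal component analysis (42.8% of the variance), at scores of -72.6 for SDW 4 and -88.7 for control 1, where the other arrays lay between 20.01 and 38.1. Of all probes, the percentage well above background averaged 40.5% ± 2.71 in SDW animals and 38.6% ± 2.95 in controls (SD, n = 4 each; p = 0.400, exact permutation test, two-sided). The number of arrays limits the precision.

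CFLAR, the inhibitor at the receptor, was at a lower level in SDW blood by probe 1 and closer between the diets by probe 2. Probe 1 read 1.83, 2.44, 2.48 and 2.17 in SDW animals 1 to 4. Controls 1 to 4 read 2.81, 2.65, 3.01 and 3.10. Every SDW animal lay below every control, with a gap of 0.17 between the highest SDW animal and the lowest control. The means were 2.23 ± 0.30 in SDW animals and 2.89 ± 0.20 in controls (SD, n = 4 each), a log2 difference of -0.66 (SE 0.24), or 0.632 of the control level. Every SDW animal lay below every control for 0.386% of the 17357 probes and above every control for 0.599%. CFLAR was chosen on this contrast, so nothing is read from those shares.

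CFLAR probe 2 overlapped between the diets. It read 1.63, 1.28, 2.03 and 1.31 in SDW animals 1 to 4. The 4 controls, in the same order, read 1.50, 2.07, 1.98 and 1.71. SDW 2 and SDW 4 lay below the lowest control, whereas SDW 3 was nearly as high as control 2, the highest animal. The means were 1.56 ± 0.35 in SDW animals and 1.81 ± 0.26 in controls (SD, n = 4 each), a log2 difference of -0.25 (SE 0.25). Which transcript forms each probe reports in pig blood was not tested.

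**Figure D1:**
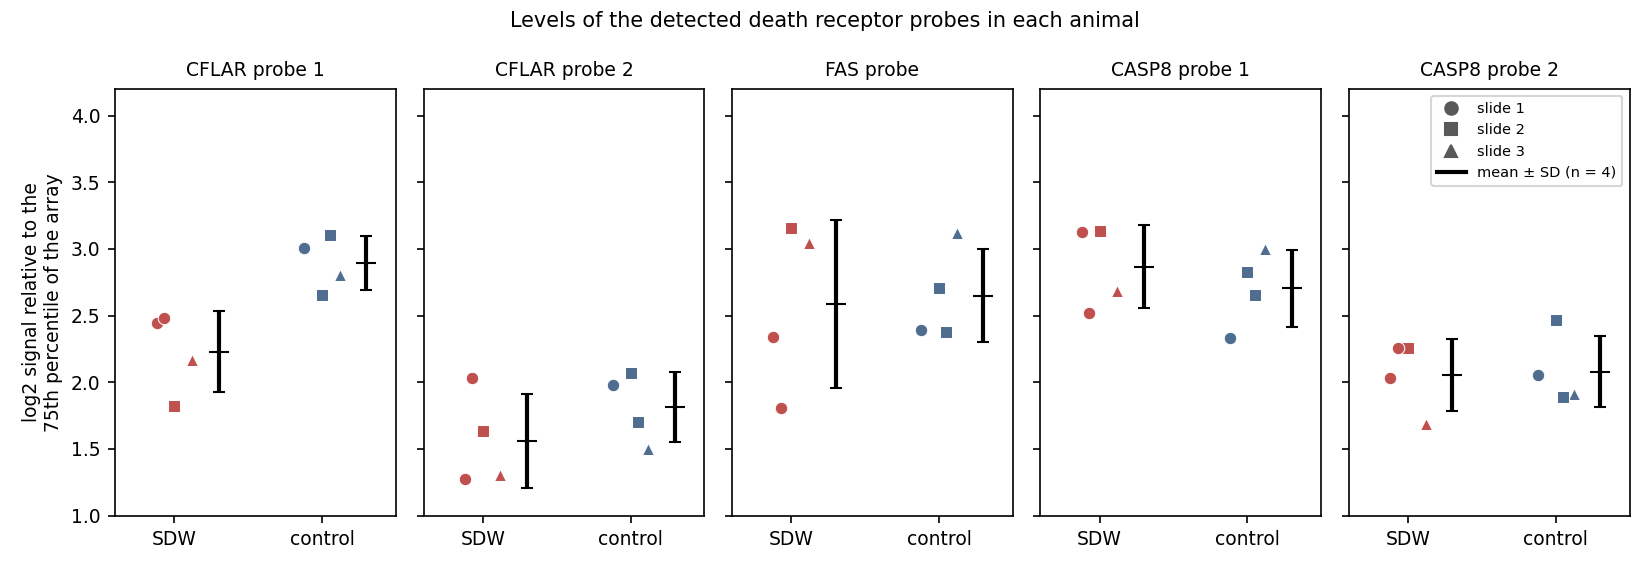
Log2 level of the 5 detected probes (y axis, relative to the 75th percentile of the array) in each SDW animal (left, red) and control animal (right, blue), with symbols for the 3 slides and bars for the mean ± SD (n = 4). CFLAR probe 1 does not overlap between the diets, with SDW animals up to 2.48 and controls from 2.65, and the other 4 probes overlap.

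The probes of CFLAR agreed in sign but not in size. Probe 1 minus probe 2, each centred on its mean over the 8 animals, differed by -0.41 between the diets, with -0.68 in SDW 1 and 0.29 in SDW 2 as the ends among SDW animals. Over the 8 animals Pearson's r between the CFLAR probes was 0.36 (exact permutation p = 0.377; adjusted over 3 relations 0.566) and Spearman's rho was 0.40 (exact permutation p = 0.327; adjusted 0.490). Without SDW 1 and control 4, the animals farthest from the median of CFLAR probe 1, r was 0.52, and with the slide means removed 0.38. A slide held too few arrays for a value of its own. The relation did not pass for CFLAR. Diet means were left in, so the difference on which CFLAR was chosen enters r, rho and their p-values. Nothing is concluded from them.

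CFLAR probe 1 was the lower in SDW animals on every slide: the SDW minus control difference was -0.54 on slide 1, -1.05 on slide 2 and -0.64 on slide 3. For CFLAR probe 2 the differences were -0.33, -0.25 and -0.19 on the same slides. These repeat the choice of the gene and are no independent support.

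FAS, the receptor, differed less between the diets than among the animals of either diet. Its probe read 3.15, 2.34, 1.81 and 3.05 in SDW animals 1 to 4. Controls 1 to 4 read 3.12, 2.71, 2.39 and 2.38. The lowest and the highest of all 8 animals were both SDW animals, and the range among SDW animals was 1.34, against 0.74 among controls. The means were 2.59 ± 0.63 in SDW animals and 2.65 ± 0.35 in controls (SD, n = 4 each), a log2 difference of -0.06 (SE 0.34). The sign turned with the animals: the difference was 0.20 without SDW 3 and -0.25 without SDW 1. Within slides 1, 2 and 3 it was -0.32, 0.61 and -0.08.

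CASP8, the caspase that the receptor complex activates, overlapped between the diets by both probes. Probe 1 read 3.13, 3.13, 2.52 and 2.68 in SDW animals 1 to 4. The 4 controls, in the same order, read 3.00, 2.83, 2.33 and 2.65. The means were 2.87 ± 0.31 in SDW animals and 2.70 ± 0.29 in controls (SD, n = 4 each), a log2 difference of 0.16 (SE 0.25). It was 0.04 without control 3, and within slides 1, 2 and 3 it was 0.49, 0.39 and -0.32.

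CASP8 probe 2 gave 2.25, 2.03, 2.26 and 1.68 in SDW animals 1 to 4. Controls 1 to 4 gave 1.91, 2.47, 2.05 and 1.89. SDW 4 was the lowest of all 8 animals and control 2 the highest. The means were 2.06 ± 0.27 in SDW animals and 2.08 ± 0.27 in controls (SD, n = 4 each), a log2 difference of -0.02 (SE 0.24). The sign turned without control 2, at 0.11.

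The relation between the CASP8 probes did not pass either. Pearson's r was 0.11 (exact permutation p = 0.800; adjusted over 3 relations 0.800) and Spearman's rho 0.02 (exact permutation p = 0.977; adjusted 0.977), and r was -0.05 without control 3 and SDW 1, and 0.20 with slide means removed. FAS and CASP8 probe 1 gave r = 0.53 (exact permutation p = 0.173; adjusted 0.520) and rho = 0.52 (exact permutation p = 0.197; adjusted 0.490), with r = 0.23 without SDW 3 and SDW 1, and 0.50 with slide means removed. None of the 3 relations passed. The permutations exchanged all 8 animals without regard to diet or slide, and the genes were chosen on these same arrays. Nothing is concluded from these p-values.

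BCL2L1, the mitochondrial inhibitor, could not be compared. Its signal before scaling was 1.93, 2.01, 1.99 and 2.25 in SDW animals 1 to 4. The 4 controls, in the same order, had 3.59, 2.24, 2.06 and 1.99. None of these was well above background, so no level or fold is given. For the inhibitors, the comparison with receptor and caspase therefore rests on CFLAR alone.

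CFLAR relative to receptor and caspase was taken within each animal as the centred level of a CFLAR probe minus the mean of FAS and CASP8 probe 1. With CFLAR probe 1 it was -1.18, -0.15, 0.46 and -0.55 in SDW animals 1 to 4. Controls 1 to 4 had -0.11, 0.03, 0.78 and 0.73. Here the diets overlapped: SDW 3, which had the lowest FAS level of all animals, lay above controls 1 and 2, while the other 3 SDW animals lay below all controls. The means were -0.36 ± 0.69 in SDW animals and 0.36 ± 0.47 in controls (SD, n = 4 each), a difference of -0.71, with -0.63, -1.56 and -0.44 on slides 1, 2 and 3. With 1 animal left out it ranged from -0.98 (without SDW 3) to -0.44 (without SDW 1). The mean of FAS and CASP8 probe 1 differed by only 0.05 between the diets. The difference on which CFLAR was chosen therefore makes up most of these values, and they are no independent support.

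With CFLAR probe 2 in place of probe 1 the difference was -0.30, and the SDW animals read -0.50, -0.44, 0.88 and -0.54. Controls 1 to 4 read -0.55, 0.32, 0.63 and 0.20. No SDW animal lay below the lowest control. On slide 3 the difference was 0.01, so the sign was not shared by the slides. The overlap also depended on the CASP8 probe. CFLAR probe 1 minus CASP8 probe 1 differed by -0.82, with 3 SDW animals below the lowest control. Against CASP8 probe 2 it differed by -0.64, with 1 SDW animal below the lowest control. CFLAR probe 2 differed by -0.41 against CASP8 probe 1 and by -0.23 against CASP8 probe 2, with 1 and 2 SDW animals below all controls.

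**Figure D2:**
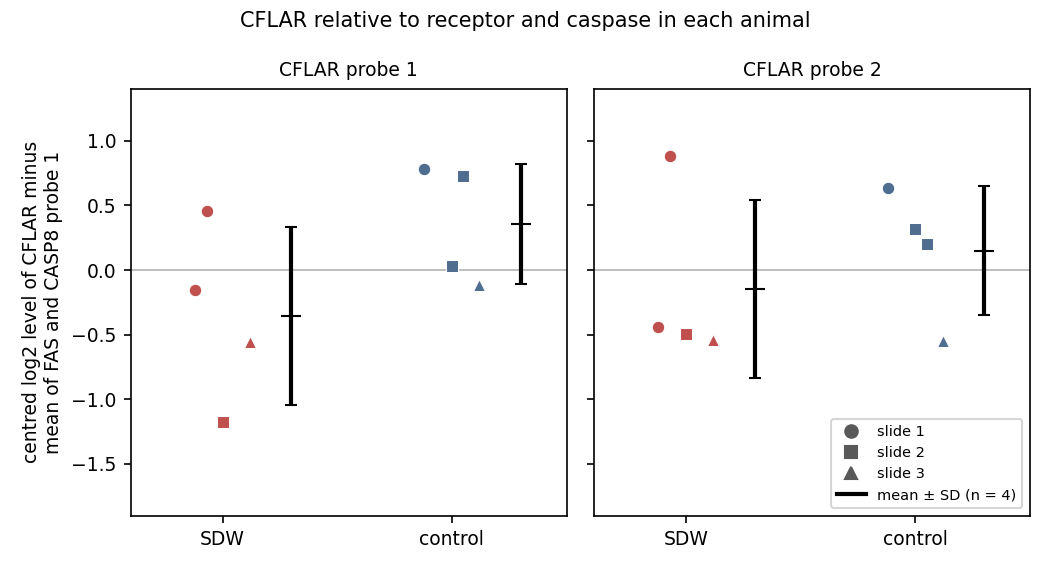
Centred log2 level of CFLAR minus the mean of FAS and CASP8 probe 1 (y axis, log2) in each SDW animal (left, red) and control animal (right, blue), by CFLAR probe 1 and CFLAR probe 2, with symbols for the slides and bars for the mean ± SD (n = 4). SDW 3 lies at 0.46 and 0.88, above the other SDW animals by either probe.

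Whether the levels followed the slides was tested, since slide itself was not used to choose the genes. Slides 1 and 2 held unequal numbers of the diets, so slide differences enter the diet difference used for that choice. The test is therefore not fully independent of the choice, and nothing is concluded from its count. In limma's F test of slide with diet in the model, 0 of the 5 detected probes passed an adjusted p of 0.05, where 11.2% of all 17357 probes did. At an unadjusted p under 0.05, which 29.6% of all probes reached, FAS was the 1 probe of the 5 (unadjusted p = 0.0470; limma, adjusted p = 0.164). FAS averaged 2.18 on slide 1, 2.75 on slide 2 and 3.08 on slide 3. The adjusted p of the other 4 probes ran from 0.554 to 0.734 in limma.

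**Figure D3:**
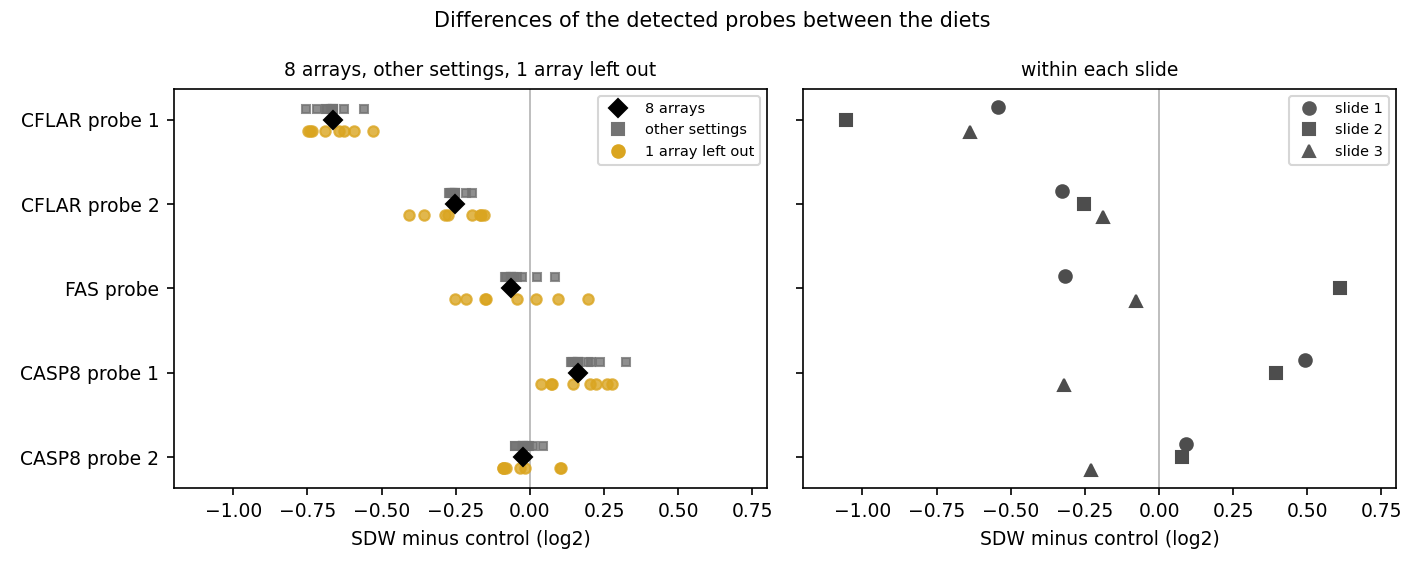
SDW minus control difference (x axis, log2) of the 5 detected probes. The left panel gives the value on all 8 arrays (diamonds), under other settings (squares) and with 1 array left out (circles); the right panel gives the value within each of the 3 slides. CFLAR probe 1 stays between -0.75 and -0.53 on the left, and FAS lies on both sides of 0. CFLAR was chosen on this contrast, so its range is no independent support.

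The rest of the pathway was read from 10 lists of 107 genes, of which 32 had a named probe and 24 were measured. These lists were written with earlier results known. None of the 24 passed the threshold (limma, 0 at an adjusted p under 0.05, as for 0% of all probes), and 0 had an unadjusted p under 0.05, where 1.45% of all probes did (0.928% higher and 0.519% lower in SDW animals). Slide was not in this fit, so differences between slides count as spread in its standard errors and p-values. With slide as a fixed block, 1145 of the 17357 probes and 1 of the 24 genes had an unadjusted p under 0.05 in limma. The adjusted calls stayed at 0. Of the 24, 10 were higher and 14 lower in SDW animals, which is 58.3% lower with a median log2 difference of -0.13; over all 17357 probes 47.1% were lower and the median was 0.02, and over the 1089 named genes 55.3% were lower. The number lower was 18 without SDW 1 and 12 without the slide 3 arrays, and the sign turned for 16 of the 24 genes, and stayed for 8, as 1 array at a time was left out. For 0 of the 24 the diets did not overlap, where 0.985% of all probes did not. Below, differences are SDW minus control on the log2 scale with the standard error of the fit, given as values since none passed.

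Of 8 ligands, 4 were measured, 1 of them higher and 3 lower. TNF, the cytokine that binds the TNF receptors, differed by -0.05 (SE 0.25). LTA, a lymphocyte cytokine of the same family, differed by -0.20 (SE 0.26). TNFSF10 (TRAIL), which triggers apoptosis through its own death receptors, differed by -0.40 (SE 0.74), at -3.06 in SDW 4 and from -0.57 to 0.92 in the other SDW animals, against -1.60 in control 1 and up to 0.15 in the other controls. Without SDW 4 the difference was 0.35. TNFSF10 was well above background on only 3 of 4 arrays of each diet. SDW 4 and control 1 are the slide 3 arrays, and the slide test called it (limma, adjusted p = 0.0276). TNFSF12 (TWEAK), a ligand with weak killing activity, differed by 0.07 (SE 0.55) and was highest on slide 3, at 7.15 in SDW 4 and 7.34 in control 1 (slide test in limma, adjusted p = 0.00698). FASLG, the ligand of FAS, and CD40LG were well above background on 0 arrays.

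Of 11 receptors, 3 were measured. TNFRSF1A, the TNF receptor that carries a death domain, read 5.92 ± 0.14 in SDW animals and 6.24 ± 0.17 in controls (SD, n = 4 each), a difference of -0.32 (SE 0.21; limma, unadjusted p = 0.150). That was the smallest p of the 24 genes, and the highest SDW animal (6.08) lay above the lowest control (6.03). TNFRSF1B, the TNF receptor without a death domain, differed by 0.29 (SE 0.31), and its other probes gave 0.19 and 1.16. CD40, a receptor of antigen-presenting cells, differed by -0.23 (SE 0.33).

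Of the adaptors, FADD, which links FAS to caspase-8, read 4.47 ± 0.28 in SDW animals and 4.56 ± 0.25 in controls (SD, n = 4 each), a difference of -0.09 (SE 0.24). TRAF5, an adaptor of TNF-family receptors, differed by 0.02. TRAF6, an adaptor of Toll-like and interleukin-1 receptors, differed by -0.76 (SE 0.81), with control 4 at 3.47 and the other controls between -0.77 and -0.26. Without control 4 the difference was 0.23.

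CASP1, the inflammasome caspase, differed by 0.36 (SE 0.34), and without SDW 2, its highest animal, by 0.07.

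Among the BCL2 family, MCL1, which like Bcl-xL protects mitochondria and sustains neutrophils, read 7.96 ± 0.32 in SDW animals and 7.96 ± 0.05 in controls (SD, n = 4 each). BAX, which opens the mitochondrial membrane, differed by 0.27 (SE 0.36), and by -0.01 without control 4. BID, which caspase-8 cleaves to carry the signal to mitochondria, differed by -0.17 (SE 0.37), its other probe by -0.30, and the first by 0.12 without control 1. PMAIP1 (NOXA), which neutralises MCL1, differed by 0.36 (SE 0.75); SDW 4 read -4.05 and the other SDW animals from -0.67 to -0.26, against -2.16 to -1.23 in controls. Without SDW 4 the difference was 1.26 (limma, unadjusted p = 0.00172, adjusted p = 0.999). PMAIP1 was well above background on only 3 of 4 arrays of each diet, so a low value can lie near background. BCL2 itself was well above background on 0 arrays.

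Of the caspase inhibitors, BIRC5 (survivin) differed by -0.28 (SE 0.52), and by 0.11 without SDW 1, and BIRC6 by 0.04 (SE 0.21). In the NF-kB branch, which turns the same receptors towards survival, all 4 measured genes had a negative difference, as did 55.3% of named genes. NFKB1 differed by -0.18, its inhibitor NFKBIA by -0.24, the kinase IKBKB by -0.17 and the scaffold IKBKG by -0.70. Their standard errors were 0.24, 0.31, 0.26 and 0.66. The size of these differences rested on single animals. Without control 1, NFKBIA was at -0.03, IKBKB at 0.01 and IKBKG at -0.21, and without SDW 1, NFKB1 was at -0.03. A probe described only by similarity to REL, also of this list, gave 0.50 (limma, unadjusted p = 0.415). IKBKG followed the slides (slide test in limma, adjusted p = 0.0195), at 0.34 in SDW 4 and 0.94 in control 1 and at most -0.74 elsewhere. IKBKG was well above background on only 3 of 4 SDW arrays and on 4 of 4 control arrays, so a low value can lie near background. GADD45A, a growth arrest gene, differed by 0.06.

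**Figure D4:**
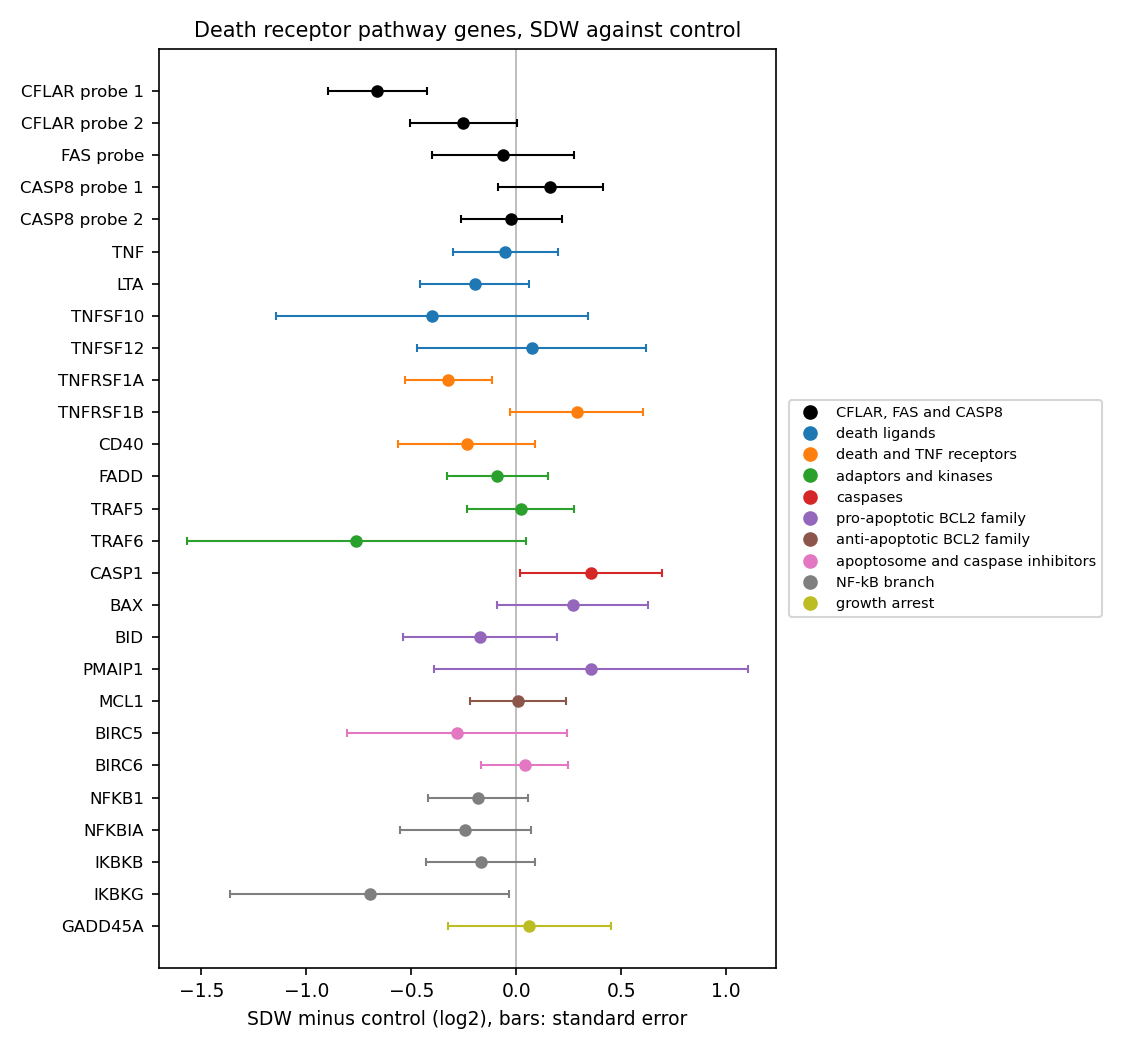
SDW minus control difference (x axis, log2) with its standard error (bars) for the 5 detected probes of CFLAR, FAS and CASP8 and for 22 other pathway genes, coloured by list. TRAF6 at -0.76 and IKBKG at -0.70 have standard errors of 0.81 and 0.66. CFLAR probe 1 at -0.66 has one of 0.24, and CFLAR probe 2 at -0.25 one of 0.25. CFLAR was chosen on this contrast, so its place among the genes is no test.

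Whole blood mixes cell types, and fewer cells of a type and less RNA per cell cannot be told apart. Each of the 5 neutrophil markers measured, of 15 listed, had a lower mean in SDW animals, and their summed signal, in units of the 75th percentile, was 184 to 345 in SDW animals and 206 to 436 in controls. Both measured markers of NK and cytotoxic cells, GNLY and KLRK1, of 9 listed, had lower means too (GNLY: limma, unadjusted p = 0.0391), at sums of 188 to 428 in SDW animals and 400 to 667 in controls. PRF1, a defining gene of those cells, was below the filter. Of 6 T cell markers measured (11 listed), 3 had lower means, with sums of 56.4 to 87.3 in SDW animals and 39.8 to 71.6 in controls, and CD4 was below the filter. Of 5 monocyte markers (8 listed), 2 had lower means; CCR2, a chemokine receptor of monocytes, was higher in SDW animals by 0.88 (limma, unadjusted p = 0.00474, the smallest of all markers measured), with list sums of 41.0 to 70.5 in SDW animals and 36.5 to 82.2 in controls. Of 5 platelet markers (8 listed), 2 had lower means, with sums of 85.1 to 149 in SDW animals and 80.5 to 142 in controls. Of 3 eosinophil and basophil markers (9 listed), 0 had lower means, with sums of 55.3 to 137 in SDW animals and 30.1 to 68.4 in controls. No erythroid marker was named. None of these genes passed the threshold (limma, 0 calls), and their part in the CFLAR difference was not tested.

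The genes whose pattern over the 8 animals was most like CFLAR probe 1 were found by the root mean square distance between centred log2 levels, among 1088 named genes. RPLP0, a ribosomal protein, came first at 0.20, followed by ANG, a ribonuclease (0.21), FUNDC2, a mitochondrial protein (0.24), STAT4, a transcription factor of T and NK cells (0.26), and CBR1, a carbonyl reductase (0.27). Their SDW minus control differences were -0.36, -0.41, -0.47, -0.19 and -0.19. CFLAR probe 2 lay at 0.40, and 91 of the 1088 genes were closer to probe 1 than it was; the median over the genes was 0.59. CASP8 ranked at 549 (0.59) and FAS at 782 (0.70). No test was made of these distances, since the CFLAR pattern was chosen.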

How the data were processed

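Whole blood RNA of 8 pigs was hybridised to 1-colour Agilent arrays, 1 per animal. Per the file headers, the deposited spot intensity was made with Agilent Feature Extraction 10.1.1.1 (9.5.3.1 per the submitters' processing notes), with background subtraction and detrending within the array and none between arrays. The authors' deposited value table holds intensity with nearly equal quantiles and an unstated method. Of its 8 columns, 7 matched a same-diet animal's scanner file other than the one labelled, so replicate names follow the scanner files. The headers also give the flags for background and outlier spots.

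Spots that were controls or outliers were dropped, spots of 1 probe averaged, and each array's 75th percentile subtracted on the log2 scale. Of 43603 probes, 2985 were named through RefSeq accession, symbol, synonym or gene number (assembly Sscrofa11.1). The diet comparison used limma 3.58.1 in R 4.3.3 (two-sided, Benjamini-Hochberg over 17357 probes, adjusted p of 0.05), without slide in the model. The code was run on simulated data with noise independent between probes. That simulation lacked the broad slide differences of these arrays, so it does not check the fit under them. Where a pathway gene had several kept probes, the brightest on average stood for it. Genes were named by a rule: every probe of CFLAR, BCL2L1, FAS and CASP8, up to 3 genes of largest difference per list (IKBKB and TNF, outside it, complete their lists), and the 5 most like CFLAR. The members and lists were chosen with earlier results of these data known. In the diet comparison without slide, p-values weigh a difference against the spread between arrays of the same diet. With 1 array per animal, that spread mixes animal, slide and technical differences. A few measured genes are counted in their lists but not reported here.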

Additional observations from a re-analysis of the deposited data

Results flagged for a closer look

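In 3 of 54 groups of 4 animals tested for a sample apart by Dixon's ratio, the lowest or highest animal lay far from the others; chance gives about 1 in 20. The centred level of CFLAR probe 2 minus the mean of FAS and CASP8 probe 1 was 0.88 in SDW 3, with the other SDW animals between -0.54 and -0.44. PMAIP1 was at -4.05 in SDW 4, with the other SDW animals between -0.67 and -0.26. Its probe was well above background on only 3 of 4 arrays of each diet. TRAF6 was at 3.47 in control 4, with the other controls between -0.77 and -0.26.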

How the results depend on the processing

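The 20 settings that were run gave CFLAR probe 1 a difference between -0.75 (slide as a fixed block) and -0.53 (without SDW 1), and CFLAR probe 2 one between -0.41 and -0.16. The replicate block and both changes of the background filter cannot move the differences of these probes. CFLAR was also chosen on this contrast, so its range is no independent support. CASP8 probe 1 stayed between 0.04 and 0.32, CASP8 probe 2 was below 0 in 16 of the 20 and FAS in 15. The other CFLAR probe, at -0.25, lay more than 1 SD from the first. The count of probes at an adjusted p under 0.05 in limma was 0 in all settings but 1: without slide 3 it was 1, an unnamed probe (A_72_P092736, adjusted p = 2.77e-05). Unadjusted, 251 probes had p under 0.05 in limma, against 162 with normexp, 823 without a filter, 165 with all arrays above background, 1145 and 631 with slide as a fixed and random block, 543 without slide 3, 519 and 441 when SDW 4 or SDW 3 was left out, and 420 when control 1 was. With the replicate block the count was 239 with 0 adjusted calls, and the block changed no call. Each replicate number holds 1 animal of each diet, so CFLAR was bound to stay at -0.66 with this block. Same-numbered animals deviated from their diet means with correlations of -0.17, 0.11, 0.33 and -0.38. Slide differences were left in these values, so they cannot tell whether the numbers pair the animals. The pathway gene at an unadjusted p under 0.05 in limma was IKBKG with the fixed block (0.0299; adjusted p = 0.731) and PMAIP1 without slide 3 (0.00274; adjusted p = 0.998). Probes described by similarity to REL, RIPK3 and FAF1, added after the data were seen, brought the pathway to 27 genes, 16 of them lower. No BCL2L1 difference is given under any setting, also without the filter, since its probe was not well above background on any array. The causes were not tested.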
